A study of Mus musculus with 6 samples.

Results

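Genes of 7 secreted carboxypeptidase-like and protease-like proteins are described here in fibro-adipogenic progenitors (FAPs), the mesenchymal cells that lie between muscle fibres. They are 5 genes of the carboxypeptidase E-like family (Cpxm1, Cpxm2, Cpz, Cpe and Aebp1) and 2 serine protease genes (Prss35 and Prss23), so 7 of the 16671 genes measured. The family was chosen because Cpxm2 and Prss35 were much higher with C1q than with vehicle in these same libraries. The values of all 7 genes between C1q and vehicle are therefore given as a description, without p-values, and counts of them past a threshold stand only beside the same counts over all genes. The cells came from wild-type mice aged 4 to 5 months, in which FAPs of the hind limb muscles were purified by flow cytometry. One group of 3 libraries received C1q at 100 µg/ml and the other, also of 3 libraries, received vehicle. C1q is the recognition protein of the classical complement pathway. Bulk RNA-seq libraries were made from 10 ng of total RNA each. The labels name the cells as FAPs, although the wording on RNA extraction speaks of MuSCs. They do not say whether replicates were separate animals or cultures, so the p-values speak for the spread among these libraries alone, and that spread may be technical.

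Metallocarboxypeptidases of the M14 family trim single residues from the C-terminal end of peptides and proteins. Within the carboxypeptidase E-like branch, some members are active enzymes of the secretory pathway or the pericellular space, while others carry a carboxypeptidase-like domain that lacks residues needed for catalysis and is joined to a discoidin domain. Prss35 and Prss23 encode secreted proteins with a trypsin-like fold, and in Prss35 the serine of the catalytic triad is replaced by threonine. Proteins of these families are known to process peptide hormones or Wnt ligands or to bind collagen.

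The reads on genes numbered 24046020 to 31929119 in the C1q libraries and 5379209 to 38861152 in the vehicle libraries. Vehicle replicate 3 was the shallowest library, in which 1 read is worth 4.25 units of the normalised read count, against 0.583 to 0.975 in the other libraries. FAP markers summed to 160330 to 165960 normalised read counts in C1q libraries and to 97877 to 122430 in vehicle libraries. All 7 listed genes are in the table, with 4 called higher (Pdgfra, Dcn, Dpt and Col6a1) and 1 lower (Pdgfrb). Col6a1 was the largest part with C1q, at 50687 ± 5121 against 23163 ± 5370 with vehicle. Pdgfrb was at 22396 ± 967 with C1q and 32028 ± 4053 with vehicle, and Ly6a and Cd34 overlapped and were not called. The 6 listed muscle stem cell markers, all in the table, summed to 6524 to 7921 with C1q and 5386 to 8243 with vehicle, with Vcam1 called higher and 3 lower. Vcam1 carried most of the sums, at 5934 ± 702 with C1q and 3858 ± 280 with vehicle. The lower ones were Myod1 (258 ± 19.4 with C1q and 841 ± 487 with vehicle), Cdh15 (111 ± 25.3 with C1q and 439 ± 327 with vehicle) and Myf5 (1.06 ± 0.40 with C1q and 11.1 ± 6.19 with vehicle). The part of these markers in the values of the 7 genes was not tested. Pax7, which defines muscle stem cells, was at 1.49 to 3.52 in C1q libraries and at 0 to 7.58 in vehicle libraries. In bulk libraries, fewer cells of a type and less RNA per cell cannot be told apart.

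The 3 members with a discoidin domain, Cpxm2, Cpxm1 and Aebp1, were the closest relatives in the family by protein sequence, yet their levels lay differently between C1q and vehicle. Their translated coding sequences, 764, 722 and 1128 residues long, shared 59.0% of aligned residues between Cpxm1 and Cpxm2, 58.0% between Cpxm2 and Aebp1 and 55.1% between Cpxm1 and Aebp1. The bases just upstream of their RefSeq start sites are printed below, 5′ to 3′ on the gene's strand (assembly GRCm38.p6), to set side by side the upstream sequence of a gene that was higher with C1q and of its 2 relatives that were not. Capitals mark matches to 6 short motifs searched on both strands in the whole window of 250 bases, namely the TATA box TATAAA, the CCAAT box, the GC box GGGCGG, the AP-1 motif TGANTCA, the TCF/LEF motif CTTTGA and the TEAD motif CATTCC. No match overlapped another. For Cpxm2 the stretch stops 24 bases short of that window, where another RefSeq model begins.
Cpxm2, chr7:132154766-132154991, minus strand: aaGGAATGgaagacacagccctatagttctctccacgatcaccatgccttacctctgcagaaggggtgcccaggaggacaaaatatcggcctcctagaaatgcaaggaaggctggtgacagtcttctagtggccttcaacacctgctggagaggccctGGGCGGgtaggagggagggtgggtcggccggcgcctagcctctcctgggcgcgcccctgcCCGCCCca
Cpxm1, chr2:130397630-130397879, minus strand: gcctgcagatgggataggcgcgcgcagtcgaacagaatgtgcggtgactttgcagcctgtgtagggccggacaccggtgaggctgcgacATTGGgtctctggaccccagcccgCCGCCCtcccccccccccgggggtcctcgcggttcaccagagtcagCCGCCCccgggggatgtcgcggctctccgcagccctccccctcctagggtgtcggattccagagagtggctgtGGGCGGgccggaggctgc
Aebp1, chr11:5861616-5861865, plus strand: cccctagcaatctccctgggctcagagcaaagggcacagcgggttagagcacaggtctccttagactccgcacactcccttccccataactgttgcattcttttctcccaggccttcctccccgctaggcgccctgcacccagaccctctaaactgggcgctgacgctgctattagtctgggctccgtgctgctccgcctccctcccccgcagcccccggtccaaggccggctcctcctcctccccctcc

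The Cpxm2 window held 3 matches to GGGCGG, 1 of them in the bases not printed, and 1 to CATTCC. The Cpxm1 window held 3 to GGGCGG and 1 to CCAAT, while the Aebp1 window held none of the 6. Among all 32851 promoter windows of that table, 32.74% hold GGGCGG, 33.85% CCAAT, 12.64% CATTCC, 12.37% TATAAA, 13.83% CTTTGA and 6.749% TGANTCA. GC content was 64.0% in the Cpxm2 window, 70.8% in that of Cpxm1 and 64.4% in that of Aebp1. The Prss35 window, with a GC content of 50.8%, 1 match to CCAAT and 1 to GGGCGG, lies inside the RefSeq span of its own gene and is not printed. These matches describe letters in a window and show no binding site. For Cpxm2, Cpxm1 and Aebp1, the bases after the RefSeq start were not found as an unbroken run in a GENCODE transcript of the gene. RefSeq promoter windows were matched for 6 of the 7 genes, Cpe being the one without.

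Cpxm2 (Entrez gene 55987, chr7:132032687-132154765, coordinates in GRCm38 throughout) encodes a secreted carboxypeptidase-like protein with a discoidin domain. Its normalised read count was 3527, 3371 and 6092 in C1q replicates 1, 2 and 3, against 115, 366.0 and 829 in vehicle replicates 1, 2 and 3. Every C1q library lay above every vehicle library, and the lowest C1q value was 4.07 times the highest vehicle value. The means were 4330 ± 1528 with C1q and 437 ± 362 with vehicle (SD, n = 3 each, as for all means). The log2 fold change on the log2(value + 1) scale was 3.67 ± 0.63 (SE), or 12.7-fold, and only 6 of the other genes in the table had a larger one. The vehicle libraries spread 7.19-fold between lowest and highest and the C1q libraries 1.81-fold. That spread moved the estimate, as the log2 fold change was 2.92 without vehicle replicate 1 and 4.34 without vehicle replicate 3. The reads behind the vehicle values were 198, 474 and 195, against 5006, 3459 and 8154 reads in C1q libraries. An exon of Gm15677 on the other strand covers 351 of the 4622 exon bases of Cpxm2 (7.59%). The strand setting is not given in the sources used here, so reads of that overlap cannot be told apart.

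Cpxm1 (Entrez gene 56264, chr2:130390775-130397629), the nearest relative, also encodes a secreted carboxypeptidase-like protein with a discoidin domain. It stood at 7176, 6873 and 7899 normalised read counts in C1q libraries, against 6608, 7723 and 11771 in vehicle libraries. The groups overlapped, and vehicle replicate 3 was the highest library. Means were 7316 ± 527 with C1q and 8701 ± 2717 with vehicle, a log2 fold change of -0.21 ± 0.20 (SE). Without vehicle replicate 3 it was 0.03, so the sign rested on that library.

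Aebp1 (Entrez gene 11568, chr11:5861866-5872248) encodes aortic carboxypeptidase-like protein, a collagen-binding matrix protein known for its part in connective tissue. It read 63892, 59788 and 59604 normalised counts in C1q libraries, against 72733, 73587 and 89324 in vehicle libraries. All C1q libraries lay below all vehicle libraries, by a small margin relative to the level. The means of 61095 ± 2424 with C1q and 78548 ± 9342 with vehicle gave a log2 fold change of -0.36 ± 0.14 (SE), which ranged from -0.41 to -0.26 when each library was left out in turn. Between 61345 and 90680 reads stood behind the C1q values and between 21012 and 124821 behind the vehicle values.

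The other 2 carboxypeptidase genes encode enzymes with catalytic activity, and Cpz was higher with C1q while Cpe was slightly lower. Cpz (Entrez gene 242939, chr5:35502218-35525626) encodes a secreted carboxypeptidase with a frizzled-type cysteine-rich domain, for which Wnt4 is a known substrate in the chick. Its normalised read count was 810.3, 1018 and 737 in C1q libraries, against 124, 326 and 191 in vehicle libraries, with no overlap. The means were 855 ± 146 with C1q and 214 ± 103 with vehicle, and the log2 fold change was 2.10 ± 0.32 (SE), or 4.27-fold. It was 1.76 without vehicle replicate 1 and 2.46 without vehicle replicate 2. The value in vehicle replicate 3 rests on 45 reads.

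Cpe (Entrez gene 12876, chr8:64592542-64693109) encodes carboxypeptidase E, which removes basic C-terminal residues from peptide prohormones in secretory granules. It read 4073, 2837 and 3136 normalised counts in C1q libraries, against 4777, 4106 and 4187 in vehicle libraries. The groups did not overlap, but C1q replicate 1 lay just under the lowest vehicle library. The means were 3349 ± 645 with C1q and 4357 ± 366 with vehicle, a log2 fold change of -0.39 ± 0.14 (SE) that was -0.54 without C1q replicate 1.

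Prss35 (Entrez gene 244954, chr9:86743240-86758443) encodes the protease-like protein without the catalytic serine. It stood at 1511, 1537 and 1015 normalised read counts in C1q libraries, against 61.2, 144 and 281 in vehicle libraries. The groups did not overlap. As with Cpxm2, vehicle replicate 1 was the lowest library and vehicle replicate 3 the highest of its group, whereas C1q replicate 3 was the lowest C1q library here and the highest for Cpxm2. Means of 1354 ± 294 with C1q and 162 ± 111 with vehicle gave a log2 fold change of 3.29 ± 0.49 (SE), or 9.75-fold, which ranked 19 from the highest in the table. It ranged from 2.72 without vehicle replicate 1 to 3.81 without vehicle replicate 3. The vehicle values rest on 105, 187 and 66 reads, the C1q values on 2144, 1577 and 1358.

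Prss23 (Entrez gene 76453, chr7:89507783-89527187), the paralog of Prss35, encodes a secreted serine protease. Its normalised read count was 9587, 8493 and 7390 in C1q libraries, against 2810, 3864 and 3188 in vehicle libraries. The lowest C1q library lay well above the highest vehicle library. The means of 8490 ± 1099 with C1q and 3288 ± 534 with vehicle gave a log2 fold change of 1.37 ± 0.14 (SE), or 2.59-fold, with a range of 1.27 to 1.50 when each library was left out. The translated coding sequences of Prss35 (409 residues) and Prss23 (382 residues) were 55.0% identical over 349 aligned residues. Their transcripts shared no run longer than 16 bases, and no pair of the 7 genes shared one longer than 24. Prss23os, on the other strand, covers 864 of the 3767 exon bases of Prss23 (22.9%), and its reads cannot be told apart from those of Prss23 without the strand setting.

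**Figure D1:**
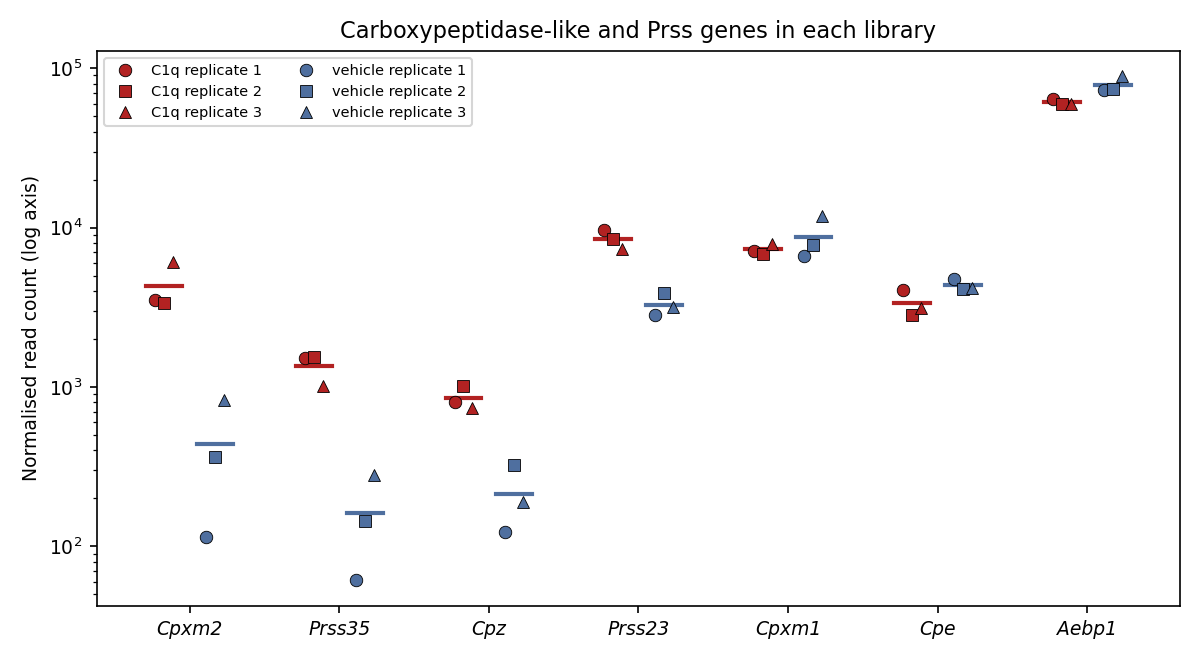
Normalised read count (log axis) of the 7 genes in each library, C1q in red left of vehicle in blue, with one symbol per replicate number and a bar at the group mean. Cpxm2, Prss35, Cpz and Prss23 lie higher in all 3 C1q libraries, Cpxm1 overlaps, and Cpe and Aebp1 lie slightly lower.

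Counted together, 4 of the 7 genes were called higher with C1q (Cpxm2, Prss35, Cpz and Prss23), none was called lower and 3 were not called. A call is a Benjamini-Hochberg adjusted p below 0.05 in limma-trend over all genes. Over all genes, 3277 of 16671 (19.7%) were called higher and 3112 (18.7%) lower. The groups did not overlap at 4 of the 7 genes with C1q higher and at 2 with C1q lower, against 4461 genes (26.8%) and 4229 genes (25.4%) in the table. The median log2 fold change was 1.37 over the 7 genes and 0.03 over all genes. Since the genes were chosen on this contrast, nothing is read from these counts. Under the alternative settings given below, Aebp1 was called lower with edgeR TMM, RLE and filterByExpr, with DESeq2 and with the length trend removed. Cpe was called lower with edgeR filterByExpr, with DESeq2, with the replicate number as a block and without C1q replicate 1.

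**Figure D2:**
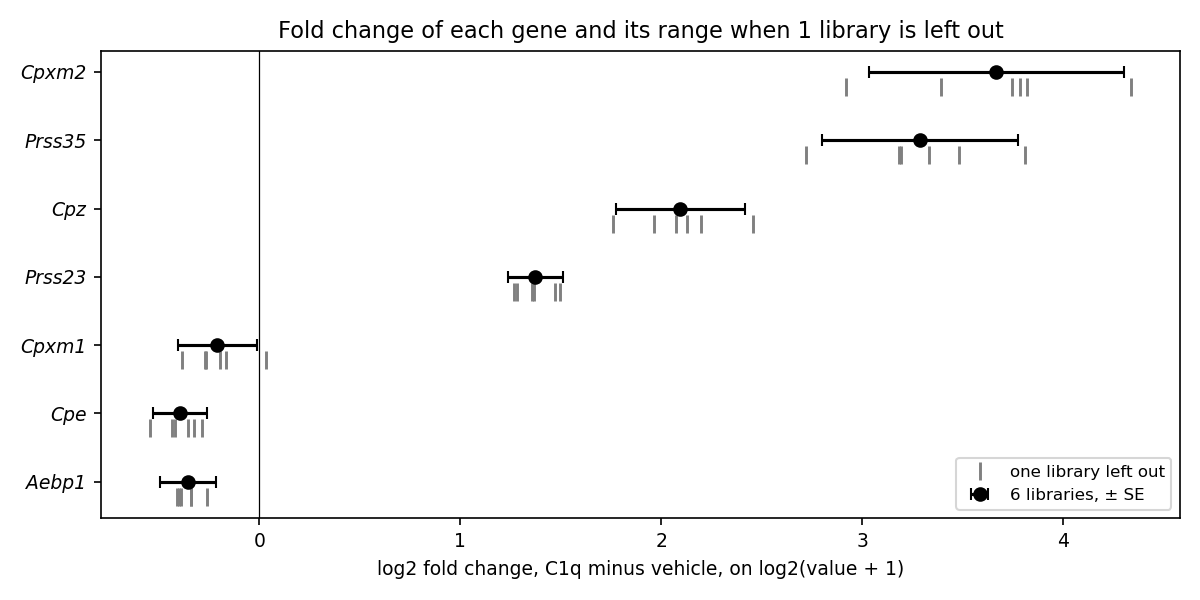
Log2 fold change, C1q minus vehicle on log2(value + 1), of the 7 genes, as a point with its SE over 6 libraries. Grey ticks below each point are the estimates with 1 library left out, which spread from 2.92 to 4.34 for Cpxm2 and stay between 1.27 and 1.50 for Prss23.

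Levels can be set between genes only per length. Per kilobase of the longest annotated transcript, Aebp1 was the highest of the 7 genes in both groups, with 15947 ± 633 normalised reads per kb in C1q libraries and 20503 ± 2439 in vehicle libraries. Cpxm1 followed with 3092 ± 223 per kb in C1q libraries and 3677 ± 1148 in vehicle libraries. In C1q libraries Prss23 came next at 2630 ± 340 per kb, followed by Cpe at 1582 ± 305 and Cpxm2 at 1238 ± 437. Of neighbours in that order, Cpxm1 and Prss23 do not differ beyond their spread, although Cpxm1 was higher in each C1q library. Cpe and Cpxm2 do not differ beyond their spread. Prss35 at 393 ± 85.5 and Cpz at 381 ± 65.0 per kb also do not. In vehicle libraries Cpe, at 2058 ± 173 per kb, lay above Prss23 at 1018 ± 165, and Cpxm2 at 125 ± 103, Cpz at 95.1 ± 45.9 and Prss35 at 47.1 ± 32.2 formed a low group within each other's spread. With coding length in place of transcript length, Cpxm1 and Prss23 changed places in C1q libraries and Cpz and Prss35 in vehicle libraries. The matrix protein Aebp1 stayed at the top of the order in both groups, and Cpxm2, Prss35 and Cpz, which were higher with C1q, had the 3 lowest means in both. In C1q replicate 3 alone, Cpxm2, at 1741 per kb, lay above Cpe, at 1481 per kb.

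**Figure D3:**
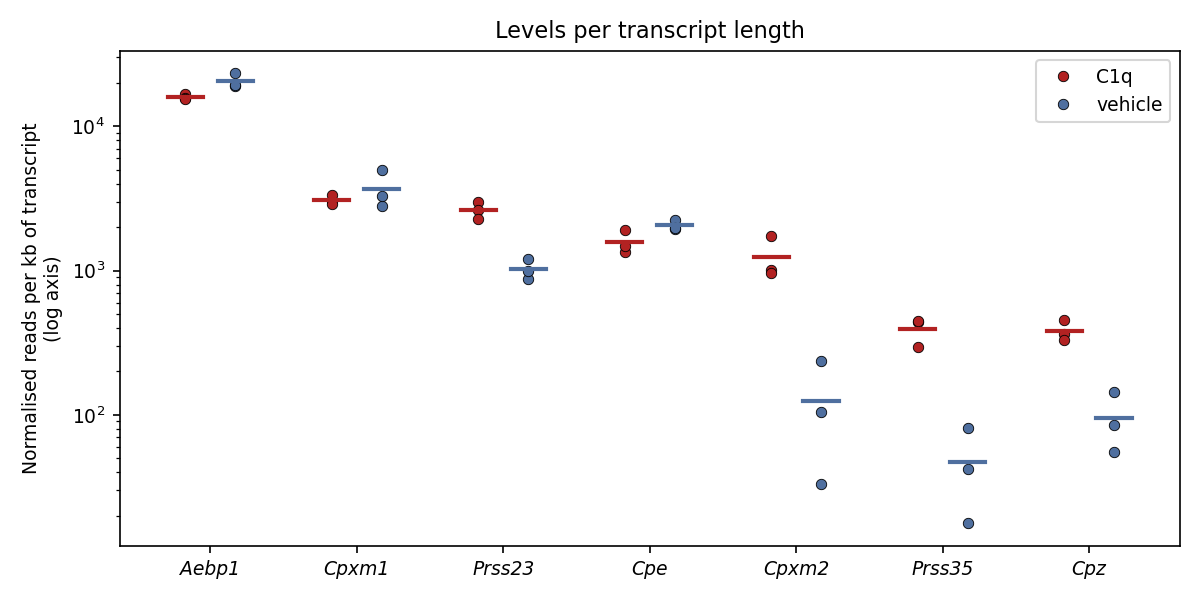
Normalised reads per kilobase of the longest annotated transcript (log axis) for each gene, with C1q libraries in red left of vehicle libraries in blue and bars at group means. By group mean Aebp1 is highest and Cpxm2, Prss35 and Cpz are the 3 lowest in both groups, but in C1q replicate 3 Cpxm2 (1741) lies above Cpe (1481).

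Over the 6 libraries, the log2 levels of the 4 higher genes ran together, as a description over points that share treatment and library. Pearson's r was 0.968 between Cpxm2 and Prss35, 0.972 between Cpz and Prss23 and 0.902 between Cpxm2 and Cpz. Between Cpxm1 and Aebp1 it was 0.73, and between Cpxm1 and Cpxm2 0.03. Among 12306 genes with a symbol and a mean log2(value + 1) of at least 5, the 5 most like Cpxm2 were Mst1r (r = 0.9996), Egfl6 (0.9991), Fmod (0.9956), Hspa12a (0.9955) and Plce1 (0.9955). Fmod encodes the collagen-binding proteoglycan fibromodulin, and Egfl6 a secreted matrix protein with EGF repeats. Egfl6 averaged 3277 ± 504 normalised read counts with C1q and 774 ± 436 with vehicle. The 5 most like Prss35 were Cfb (0.9997), Zfp382 (0.9985), Gpm6b (0.9964), Herpud2 (0.9963) and Ssc5d (0.9958). Cfb encodes complement factor B, a serine protease of the alternative pathway, which averaged 5494 ± 361 with C1q and 2781 ± 648 with vehicle. With only 6 libraries in 2 treatments, such coefficients are a description, and how many genes come close to them was not counted.

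The summed tendon markers were higher with C1q, and were carried by Thbs4, which was not called, and Fmod. The 6 listed tendon genes summed to 50892, 44734 and 97822 normalised read counts in C1q replicates 1, 2 and 3, and to 9640, 18055 and 35777 in vehicle replicates 1, 2 and 3. Within each group this is the order of Cpxm2, and Fmod was among the 5 genes most like Cpxm2 (r = 0.9956). Prss35, however, was lowest of its group in C1q replicate 3. All 6 are in the table, of which Tnmd, Fmod and Kera were called higher and Scx, the transcription factor that defines the lineage, was called lower (log2 fold change -1.21, adjusted p = 0.00248, limma-trend). The Kera call was lost without C1q replicate 3 (adjusted p = 0.0619). Tnmd was at 1851 ± 504 with C1q and 324 ± 164 with vehicle, and Scx at 156 ± 37.9 with C1q and 358 ± 55.4 with vehicle. Among vehicle libraries Scx ran against Cpxm2, at 413, 358 and 302 in replicates 1, 2 and 3. Muscle fibre markers ran the other way among vehicle libraries, with sums of 10134, 15982 and 13359 in C1q libraries against 56722, 32258 and 14730 in vehicle libraries. All 6 fibre markers are in the table, with 1 called higher (Myh2) and 2 lower (Ckm and Tnnt3). Acta1 and Myh1 carried most of the sums, and neither was called. Acta1 was at 7030 ± 1580 with C1q and 18611 ± 11171 with vehicle, and Myh1 at 4509 ± 925 with C1q and 11002 ± 7204 with vehicle. The part of the tendon and fibre markers was not tested either. Leukocyte markers summed to 11.3 to 70.2 with C1q and 29.8 to 55.4 with vehicle, with 3 of 5 in the table and Ptprc and Cd3e not in it. Neither the 5 endothelial nor the 5 pericyte and smooth muscle markers gave a call. The endothelial sums were 572 to 1274 with C1q and 608 to 1287 with vehicle. Tek carried most of them, at 854 ± 351 with C1q and 716 ± 231 with vehicle. The pericyte and smooth muscle sums were 4213 to 5609 with C1q and 5004 to 15144 with vehicle. Des carried most of these, at 3687 ± 571 with C1q and 8787 ± 5064 with vehicle. It stood at 14140, 8149 and 4073 in vehicle replicates 1, 2 and 3, the order of the fibre sums there. Rgs5 averaged 5.98 ± 0.98 with C1q and 2.71 ± 2.41 with vehicle. Of the Schwann cell markers, 2 of 4 were called higher, with sums of 199 to 223 with C1q and 76.5 to 133 with vehicle.

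**Figure D4:**
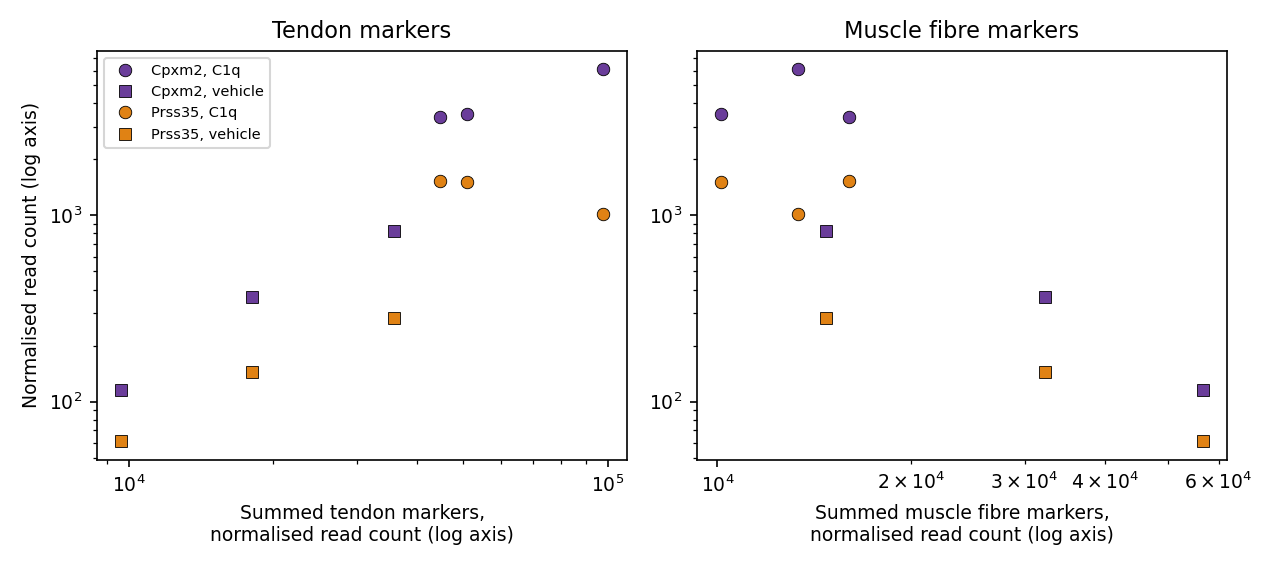
Normalised read count of Cpxm2 and Prss35 (log axis) against the summed tendon markers (left) and the summed muscle fibre markers (right, both on log axes) in each library, C1q as circles and vehicle as squares. Within vehicle, both genes go up with the tendon sum from 9640 to 35777 and down with the fibre sum, while within C1q Prss35 is lowest (1015) where the tendon sum is highest (97822).

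Around the 7 genes, 12 lists of related enzymes, inhibitors, substrates and binding partners held 158 genes, of which 104 were in the table. Of these, 25 were called higher with C1q, 12 lower and 67 neither, with a median log2 fold change of 0.26 beside 0.03 over all genes. Over all genes, 19.7% were called higher and 18.7% lower, and the counts of each list below stand beside those shares. Adjusted p-values in the following come from limma-trend over all genes.

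Other secreted or surface metallocarboxypeptidases had 6 of 13 genes in the table, with 1 higher, none lower and a median log2 fold change of -0.13. The one that rose was Cpd, the carboxypeptidase D of the trans-Golgi network, at 5142 ± 478 normalised read counts with C1q and 3466 ± 405 with vehicle (log2 fold change 0.57, adjusted p = 0.00467), which was not called with the length trend removed (adjusted p = 0.433). Cpm, a membrane-bound carboxypeptidase, was at 14.2 ± 4.47 with C1q and 19.2 ± 5.62 with vehicle, and overlapped. Cpq stood at 1691 ± 112 with C1q and 1676 ± 169 with vehicle. Cpb1, the digestive carboxypeptidase B, had a log2 fold change of 2.69 that did not pass (adjusted p = 0.114). Its normalised read count was 59.9, 77.0 and 37.4 in C1q libraries, against 26.2, 23.9 and 0 in vehicle libraries, the 0 being in the shallowest library. Without vehicle replicate 3 the log2 fold change was 1.12 and was called (adjusted p = 0.0292), with DESeq2 it was 1.54 (0.0112), and the replicate block called it at 2.69 (0.0323). With the block, 2 genes of this list were higher.

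Among the cytosolic carboxypeptidases that act on tubulin, 2 of 4 genes in the table, out of 6 listed, were called higher, with a median of 0.65. Agbl2 (log2 fold change 1.08, adjusted p = 0.00302) and Agbl3 (0.96, adjusted p = 0.0113) passed, but neither did when all libraries were thinned to the depth of the shallowest (adjusted p = 0.121 and 0.179). The lysosomal serine carboxypeptidases lay on the other side, with 2 of 3 genes lower and none higher. Ctsa, the protective protein cathepsin A, fell to 6540 ± 310 with C1q, against 13705 ± 452 with vehicle (log2 fold change -1.07, adjusted p = 1.96e-04). Scpep1 fell to 8310 ± 698 with C1q, against 13618 ± 550 with vehicle (-0.72, adjusted p = 7.83e-04), and Prcp did not pass (-0.34, adjusted p = 0.0591), but did without vehicle replicate 2 (0.00308), with DESeq2 (0.0422) and with edgeR TMM (0.0408). Of the carboxypeptidase inhibitors, Lxn overlapped between the groups and Rarres1 did too, and neither of the 2 was called.

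Of the other Prss genes, 8 of 38 were in the table, with none higher and 2 lower, and a median of -0.18. Prss56 and Prss46 were the called genes, both at 0 to 4.66 normalised read counts, where single reads decide the value, and both calls were lost when C1q replicate 1 or 2 or vehicle replicate 1 was left out, with the replicate block (adjusted p = 0.0538 and 0.0775), and under other settings. Prss12 and Prss36 did not pass. Other secreted proteins of the trypsin-fold list had 17 of 23 genes in the table, with 5 higher, 2 lower and a median of 0.10. Htra3, a secreted protease of the HtrA family, rose to 3251 ± 58.7 with C1q, against 1735 ± 329 with vehicle (log2 fold change 0.92, adjusted p = 0.00118). C1s1, a protease of the C1 complex itself, rose to 17700 ± 1064 with C1q, against 11947 ± 2111 with vehicle (0.58, adjusted p = 0.0122), while its partner C1ra did not pass (0.30, adjusted p = 0.300). Cfb rose as well (1.01, adjusted p = 0.00228). F7, coagulation factor VII, fell to 26.7 ± 3.96 with C1q, against 135 ± 2.52 with vehicle (-2.30, adjusted p = 2.46e-04). Its cofactor F3, tissue factor, which is itself no protease, did not pass (-0.06, adjusted p = 0.822).

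Serine protease inhibitors had 17 of 18 genes in the table, with 2 higher, 3 lower and a median of 0.11. Serpinb9 (log2 fold change 1.11, adjusted p = 0.0334) and Serpina3g (0.71, adjusted p = 0.0289) were higher, and Serpinb6a (-0.47, adjusted p = 0.00402) and Tfpi2 (-0.42, adjusted p = 0.0187) lower. Serpinb9 and Serpinb6a belong to a clade of mostly intracellular inhibitors. The Serpinb9 call was lost without C1q replicate 1 or 3 or vehicle replicate 1 or 2 (adjusted p = 0.0943 to 0.109). That of Serpina3g was lost without C1q replicate 1 or 2 or vehicle replicate 2 or 3 (0.0521 to 0.103). Both calls were also lost after thinning (0.0586 and 0.143). The Tfpi2 call was lost without C1q replicate 1 or 3 (0.0731 and 0.0761). It was also lost with the length trend removed (log2 fold change -0.15, adjusted p = 0.373). Serping1, the inhibitor of the C1 proteases, did not pass (0.73, adjusted p = 0.0548), but did with the replicate block (0.0145), with DESeq2 (0.00764), with the length trend removed (0.0335) and without vehicle replicate 3 (0.00581). Serpinf1 did not pass either (0.25, adjusted p = 0.180), but did with the length trend removed (0.0464).

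Proprotein convertases, some of which cut prohormones before Cpe trims them, were listed with other peptide-processing enzymes. This list had 13 of 14 genes in the table, with 1 higher, 1 lower and a median of 0.21. Which of them act before Cpe in these cells was not tested. With the replicate block 4 were higher. Pcsk6, which encodes the secreted convertase PACE4, rose to 3289 ± 389 with C1q, against 954 ± 356 with vehicle (log2 fold change 1.85, adjusted p = 0.00149). Furin did not pass (-0.05, adjusted p = 0.701), but was called lower with the length trend removed (-0.37, adjusted p = 0.0151). Pam, which amidates peptides, did not pass either (0.40, adjusted p = 0.0654), but did with the replicate block (adjusted p = 0.0111), without vehicle replicate 1 (0.0313) and with DESeq2 (0.0269). Among prohormones and granule proteins, 12 of 15 were in the table, with 3 higher, 2 lower and a median of 0.38. Penk, the enkephalin precursor, rose to 5912 ± 811 with C1q, against 534 ± 138 with vehicle (3.49, adjusted p = 1.12e-04), and Scg2, the granule protein secretogranin II, rose too (3.71, adjusted p = 2.21e-04). Cck, the cholecystokinin precursor, fell to 41.9 ± 17.6 with C1q, against 1076 ± 381 with vehicle (-4.65, adjusted p = 2.06e-04), and Gal, the galanin precursor, was also lower (-3.34, adjusted p = 0.00538). The Gal call was lost after thinning (adjusted p = 0.103), and its log2 fold change was -2.74 without vehicle replicate 1.

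Other genes with a discoidin domain had 12 of 15 in the table, with 5 higher, none lower and a median of 0.66. Nrp1, a co-receptor for VEGF and semaphorins, rose to 11073 ± 405 with C1q, against 5423 ± 673 with vehicle (log2 fold change 1.04, adjusted p = 3.48e-04). Ddr2, a collagen receptor kinase, rose to 13044 ± 1011 with C1q, against 6963 ± 777 with vehicle (0.91, adjusted p = 6.18e-04). F8 (1.30, adjusted p = 6.18e-04) and Edil3 (1.21, adjusted p = 0.0312) also passed, whereas Mfge8 and Nrp2 overlapped and did not, although Nrp2 was called lower without vehicle replicate 2 (adjusted p = 0.0229). Edil3 lost its call when any C1q library was left out, with an adjusted p of up to 0.1 without C1q replicate 3, and without vehicle replicate 1 or 2. Secreted genes with a frizzled-type domain, as in Cpz, and Wnt4 had 5 of 6 in the table, with 3 higher, none lower and a median of 1.22. Sfrp2, a secreted modulator of Wnt signalling, rose to 40025 ± 12462 with C1q, against 10496 ± 5275 with vehicle (2.05, adjusted p = 0.00906), and Sfrp1 rose to 89738 ± 7295 with C1q, against 40053 ± 14681 with vehicle (1.22, adjusted p = 0.00607). Sfrp4 passed narrowly (1.53, adjusted p = 0.0465) with groups that overlapped, and lost its call without C1q replicate 1 or 3 or vehicle replicate 1 or 2 (adjusted p = 0.0787 to 0.142), while without C1q replicate 2 its log2 fold change was 2.13. Wnt4 itself was at 62.7 ± 16.5 with C1q and 45.9 ± 16.6 with vehicle and did not pass.

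The fibrillar collagens, some of which the Aebp1 product binds, had all 5 genes in the table, with 3 higher, none lower and a median of 0.68. Col5a1 (log2 fold change 0.97, adjusted p = 0.0032), Col5a2 (0.66, adjusted p = 0.00375) and Col1a1 (0.77, adjusted p = 0.0287) were higher with C1q. None of the 3 was called with the trend on transcript length removed (adjusted p = 0.0684, 0.118 and 0.189), and Col1a1 was not without C1q replicate 1 or 2 or vehicle replicate 1 or 2 (0.0548 to 0.0905). Col3a1 (0.68, adjusted p = 0.0803) and Col1a2 (-0.44, adjusted p = 0.179) did not pass, although DESeq2 called both (4.15e-04 and 0.00253) and edgeR TMM called Col3a1 (0.0299). Aebp1, at -0.36, had the sign of Col1a2 and not of the other 4.

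**Figure D5:**
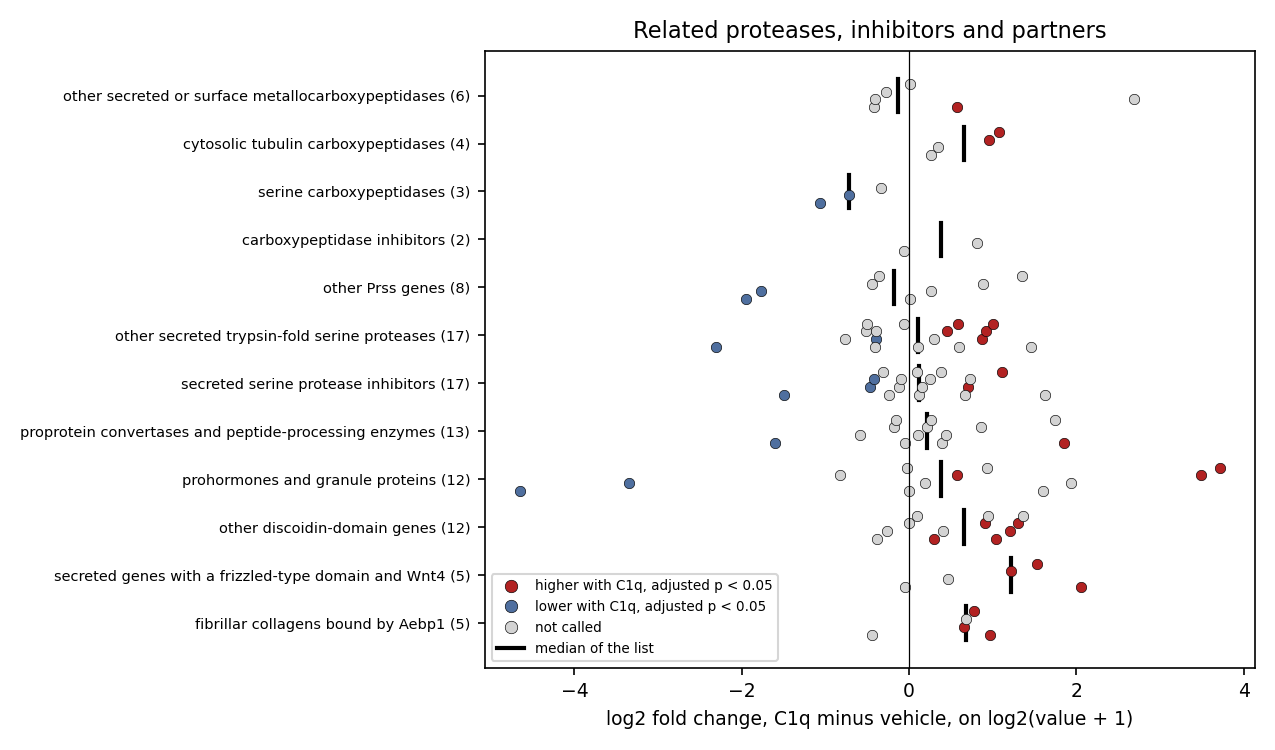
Log2 fold change, C1q minus vehicle on log2(value + 1), of the 104 related genes by list, with the number of genes in brackets. Red points were called higher with C1q, blue lower, grey neither, and a black bar marks each list's median, which runs from -0.72 for serine carboxypeptidases to 1.22 for the frizzled-type genes.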

How the data were processed

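Gene expression was measured in 6 libraries, 3 with C1q and 3 with vehicle, grouped by their labels. The authors deposited a normalised signal per Entrez gene, read counts divided by a size factor per library. The submitters' processing notes name Trimmomatic, HISAT2, featureCounts, DESeq2 and build mm10, while their versions and the strand setting were not given in the sources used here. All deposited values (100%) came out as whole reads within 0.001 read, so reads were recovered, and totals were 5379209 to 38861152 per library. Replicates differed by more than sampling noise, with a chi-square per degree of freedom of 17.6 to 42.9. No column belonged to no sample (0). Intervals for counting error are not given, since 3 libraries per group set the error.

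Symbols came from RefSeq GRCm38.p6 (16077 of 16671 IDs, 594 without) and lengths from GENCODE M21 (89.6% of IDs). The test was limma-trend (limma 3.58.1, R 4.3.3) on log2(value + 1) over all genes, with no covariate and Benjamini-Hochberg adjusted p below 0.05. Fold changes on this scale usually understate those of low genes, but can overstate them where a library has 0 reads. Alternatives were pseudocounts of 0.5 and 5, a mean of at least 10, edgeR 4.0.16 with TMM, RLE or filterByExpr and DESeq2 1.42.0 on recovered reads, thinning to the shallowest library, removal of a loess trend on transcript length (span 0.5), the replicate number as a block, and leaving out each library. One alternative, edgeR without the shallowest library, was chosen after seeing the data. Deviations of same-numbered libraries from their group means correlated at 0.123, 0.175 and 0.132, all above the limit of 0.1, so shared numbers were taken as pairs in the block alternative, while the main test has no block. This rests on the data, since the labels state no pairing.

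All 7 members were named, and in each list up to 4 called genes with the lowest p and up to 2 uncalled genes with the highest mean, with Cpd and Cpm in any case, plus the 5 genes most like Cpxm2 and Prss35. One called gene of these lists is counted but not reported here. The members and lists were chosen with earlier results of these data known. Protein identities are from local alignments (BLOSUM62) of GENCODE coding sequences. The computations were tested on simulated data.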

Additional observations from a re-analysis of the deposited data

How the results depend on the processing

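Depth limits the vehicle values of Cpxm2, Prss35 and Cpz most, with 195, 66 and 45 reads in the shallowest library. The 3 libraries per group limit all values. Against 6389 genes called, alternatives gave 4982 with the length trend removed, 4659 after thinning and 4599 to 7242 with 1 library left out, and 2184 genes in place of 3277 were called higher with the length trend removed.

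None of the 7 genes was called lower in the main test (0). The count was 1 with edgeR TMM, 1 with edgeR RLE, 2 with edgeR filterByExpr, 2 with DESeq2, 1 with the length trend removed, 1 with the replicate block and 0 to 1 with 1 library left out. The paired fit with the replicate block called 5 of the 7 genes in place of 4, Cpe being the addition, 6833 genes in all and 41 in the related lists. It changed no other call among the 7 genes. Among named related genes it added Serping1, Pam, Cpb1 and Agtpbp1 (adjusted p = 0.0327) and lost Prss46 and Prss56, leaving 0 other Prss genes lower. The related lists, with 37 calls, gave 24 to 41 with 1 library left out, the 24 being without C1q replicate 1. Of 64 named related or similar genes, 18 lost their call under at least 1 of 17 alternatives, 10 gained one and 0 reversed. The cause of these shifts was not tested.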

Other observations

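The genes of the table that lie next to the 7 genes on the chromosome were looked at after the values above were seen. Prss23 has Fzd4, a Wnt and Norrin receptor gene, on one side at a distance of 97672 bases. Fzd4 was at 2038 ± 326 normalised read counts with C1q and 714 ± 79.1 with vehicle (SD, n = 3 each), a log2 fold change of 1.50 with an adjusted p of 3.20e-04 (limma-trend), higher in all 3 C1q libraries. On the other side, Me3 did not pass (0.43, adjusted p = 0.219). Cpxm2 lies between Bub3, which was lower with C1q (-0.43, adjusted p = 0.00177), and Chst15, which did not pass (-0.01, adjusted p = 0.955). The neighbours of Prss35, A330041J22Rik and Snap91, were both under 10 normalised read counts in every library and did not pass. Cpe has Tll1, which encodes a tolloid-like metalloprotease and was higher with C1q (1.28, adjusted p = 0.00657, but 0.107 after thinning), on one side and Msmo1, an enzyme gene of cholesterol synthesis that was lower (-1.11, adjusted p = 7.32e-04), on the other. Next to Cpxm1, Ebf4 was higher with C1q (1.32, adjusted p = 0.0277), a call lost without any one of 5 libraries (every one but vehicle replicate 3, 0.0555 to 0.0954) and after thinning (0.0745), and Tmem239 did not pass. Next to Cpz, Lrpap1 was slightly higher (0.24, adjusted p = 0.0163), a call lost without any one C1q library (0.0518 to 0.069), and Trmt44 did not pass. Next to Aebp1, Polm was lower (-0.68, adjusted p = 0.00117) and Pold2 did not pass.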
